A study of Drosophila melanogaster with 7 samples.

Results

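The sites described here are the interphase binding sites of 2 insulator proteins, CP190 and BEAF, in Kc167 cells, an established embryonic line of Drosophila melanogaster. Members were all peaks of the interphase CP190 list (10431 of 11470) and of the interphase BEAF list (5681 of 7980) that lay on the arms 2L, 2R, 3L and 3R or on chromosomes 4 and X, called the main arms. Together they are 16112 of the 40204 peaks in the 7 chromatin immunoprecipitation sequencing (ChIP-seq) libraries of the series. A CP190 peak and a BEAF peak were called shared when they overlapped by at least 1 bp, and each such combination is called a pair. The series sets interphase against mitosis for CP190, dCTCF and BEAF, with Su(Hw) analysed here in mitosis. All came from the same cell line, and the labels name no genotype or treatment. Cells were fixed with 1% formaldehyde for 10 min, stained for phosphorylated histone H3 and DNA, and sorted into an interphase and a mitotic population before precipitation. The CP190, BEAF and Su(Hw) antibodies came from rabbit, and the dCTCF antibody was a guinea pig and rat mixture.

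Insulator proteins mark boundaries between regulatory domains and take part in contacts between distant sites. BEAF, the boundary element-associated factor, binds DNA directly through a BED finger at clusters of the motif CGATA and is known for sites close to the promoters of broadly expressed genes. CP190 carries zinc fingers and a BTB domain and is known as a cofactor shared by several DNA-binding insulator proteins, among them BEAF, dCTCF and Su(Hw).

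There was 1 library per side, so no difference between libraries could be tested and no p-value is given. Intervals are 95% Wilson intervals for shares and 95% Newcombe intervals for differences of shares, and cover counting error only. Read depth is unknown, since the authors' lists hold peaks alone, so a missing call is no proof of absence. Each peak has a score given by the authors, from 50.01 to 3233.06 in both interphase lists. Scores were ranked within a list and never compared in size between lists. Many peaks are tied at 3100 (534 CP190 and 341 BEAF peaks over the whole lists), although some scores are higher. The tie may be a ceiling, so no meaning is read into the order among the strongest peaks. The rules that picked the named sites did rank scores above 3100 over those tied there. Sites named as strong are thus examples, and peaks tied at 3100 may be as strong. Positions are given 1-based, on sequence names of Drosophila release 5, with no gene assignment.

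By an overlap of 1 bp or more, most BEAF peaks lay at a CP190 peak, whereas less than 50% of CP190 peaks lay at a BEAF peak. BEAF peaks were shared in 4125 of 5681 cases (72.6%, 71.4 to 73.8%) and CP190 peaks in 4111 of 10431 (39.4%, 38.5 to 40.4%). The CP190 list is the longer one. With equal numbers of the highest scoring peaks (5681 of each) the shares were 50.3% for BEAF and 47.9% for CP190, and with a reciprocal overlap of 50% they were 49.8% and 27.1%. The CP190 peaks covered 7.28 Mb against 3.39 Mb for BEAF. Of the bases in BEAF peaks, 62.2% also lay in a CP190 peak, and 29.0% of the bases in CP190 peaks lay in a BEAF peak. The shared peaks formed 4310 pairs. In 3586 of them (83.2%) each peak overlapped no further peak of the other list.

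Sharing was more frequent at higher scores in both lists. By quintile of BEAF score, from the lowest, CP190 was present at 56.7% (53.8 to 59.5%), 62.1%, 68.8%, 81.2% and 94.4% (92.9 to 95.6%) of BEAF peaks. A CP190 peak was thus called at 1073 of the 1137 strongest BEAF peaks, and at 376 of the 392 BEAF peaks with a score of 3100 or more. From the CP190 side, BEAF was present at 22.8% (21.1 to 24.7%), 33.2%, 41.0%, 47.6% and 52.5% (50.3 to 54.6%) of peaks from the lowest to the highest quintile. Even among the strongest CP190 peaks, 992 of 2087 had no BEAF call. Higher scoring peaks were also wider, with median CP190 widths of 445 bp in the lowest and 909 bp in the highest quintile. Within score quintiles the wider CP190 peaks were shared more often than the narrower ones, at 62.1% against 42.9% in the highest. Wider BEAF peaks were not, at 53.9% against 70.2% in the second quintile and 94.4% for both in the highest. With every peak set to 400 bp around its midpoint, the shares in the lowest and highest quintiles were 21.6% and 49.0% for CP190 and 53.0% and 90.8% for BEAF.

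**Figure D1:**
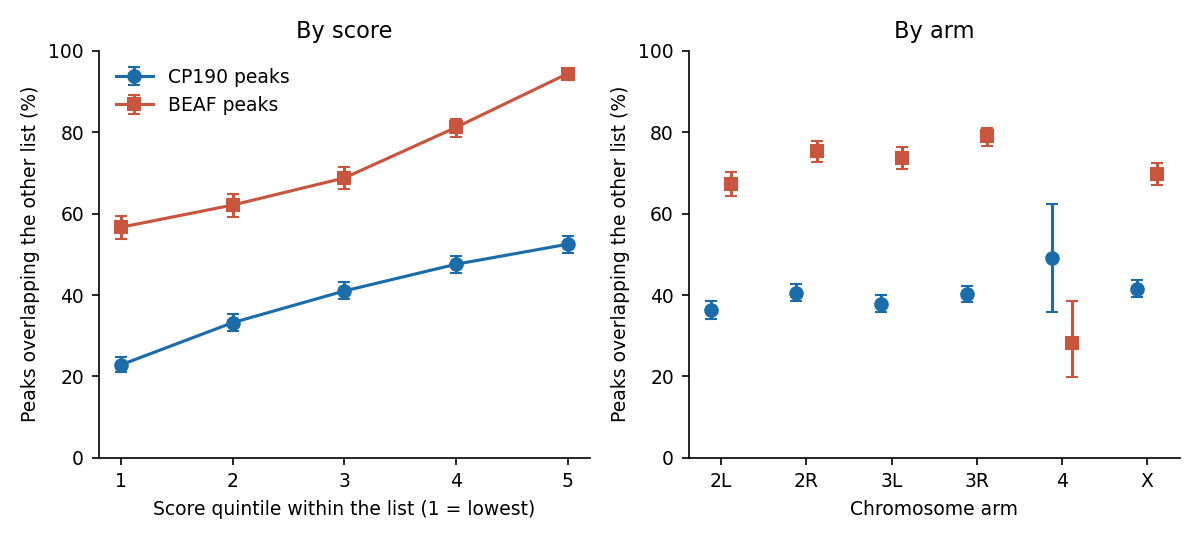
Share of interphase CP190 peaks (circles) and BEAF peaks (squares) that overlap the other list, by score quintile within the list (left) and by chromosome arm (right), with 95% Wilson intervals and 1 library per protein. The BEAF share goes from 56.7% in the lowest to 94.4% in the highest quintile, the CP190 share from 22.8% to 52.5%, and chromosome 4 has the lowest BEAF share at 28.2%.

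The BEAF share differed between arms and was lowest on chromosome 4, while the interval of the CP190 share there included the values of the other arms. On the large arms the BEAF share lay between 67.3% on 2L (64.3 to 70.1%) and 79.0% on 3R (76.6 to 81.1%), and the CP190 share between 36.3% on 2L and 41.6% on X. Chromosome 4, a small and largely heterochromatic chromosome, held 85 BEAF and 51 CP190 peaks. It had 62.9 BEAF peaks per Mb, more than any large arm (42.8 to 53.0 per Mb), and 37.8 CP190 peaks per Mb, fewer than any large arm (79.3 to 97.8 per Mb). There 24 of 85 BEAF peaks were shared (28.2%, 19.8 to 38.6%), against 25 of 51 CP190 peaks (49.0%, 35.9 to 62.3%). Among BEAF peaks of the highest 2 score quintiles, 12 of 28 were shared on chromosome 4 (42.9%, 26.5 to 60.9%) and between 84.3% and 91.0% on the other arms. Shared CP190 sites lay close together elsewhere, with a median distance between successive sites of 8695.5 bp on X to 11162.5 bp on 3L.

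At shared sites the centres of the peaks lay close together. The median distance between the midpoints of a pair was 87.75 bp (84.0 to 91.5 bp, exact binomial interval of the median), and the middle 50% of pairs lay between 39.5 and 201.5 bp. Midpoints were within 100 bp in 54.7% of pairs and within 500 bp in 95.5%. Peaks that overlap cannot have midpoints farther apart than the mean of their widths. Median widths were 674 bp for shared CP190 peaks and 508 bp for shared BEAF peaks. The share within 500 bp is thus largely set by the definition of a pair and is no evidence of closeness. The offset to be expected from overlap alone was not tested. The BEAF midpoint was to the right of the CP190 midpoint in 2170 pairs and to the left in 2130. Right and left are genome coordinates. Sites were not oriented by gene or motif, so these counts cannot show whether the offset has a side. For scale, sonicated fragments were 200 to 1000 bp and the libraries were selected for 200 to 300 bp, per the labels' protocols. The BEAF midpoint fell inside the CP190 peak in 91.2% of pairs, and the whole BEAF peak did so in 50.2%. The CP190 peak was the wider of the pair in 72.0%.

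Wide peaks and sites with several peaks made up most of the large offsets. The median offset was 72.5 bp in pairs where each peak had 1 partner and 313.25 bp in the other 724 pairs. It was 67.0 bp where both peaks were 1000 bp or narrower and 201.25 bp where the CP190 peak was wider. On the large arms the median offset ranged from 81.5 bp on 2L to 91.5 bp on X. The 3 largest offsets, 2462 to 3037.5 bp, belonged to BEAF regions of 5172 to 6270 bp that overlapped a CP190 peak near 1 end. The largest was on 2L, where a BEAF region at 6877849 to 6883020 with a score of 186.4 met a CP190 peak at 6876912 to 6877882 with a score of 171.57. All 3 regions also carried mitotic peaks of CP190, dCTCF and Su(Hw).

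The offset of CP190 and BEAF was smaller than that of either protein to dCTCF and larger than that of 1 protein between phases. The median was 106.5 bp (99.5 to 112.5 bp) for 2259 pairs of interphase CP190 and dCTCF and 121.5 bp (110.0 to 133.0 bp) for 1447 pairs of dCTCF and BEAF. For interphase and mitotic CP190 it was 64.5 bp, and for interphase and mitotic BEAF 48.5 bp. Peak widths differ between these lists, with main-arm medians of 600 bp for CP190, 496 bp for BEAF and 614 bp for dCTCF in interphase. Among peaks of 1000 bp or less the medians were 67.0 bp for CP190 with BEAF and 68.5 bp for CP190 with dCTCF, and their intervals overlapped. Wherever dCTCF was also called at the CP190 peak, the CP190 to BEAF offset was 106.0 bp (98.5 to 114.5 bp, 1344 pairs), and elsewhere it was 82.0 bp (78.5 to 85.5 bp, 2966 pairs). The CP190 peaks with dCTCF were wider, with a median of 928.5 bp against 619 bp.

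**Figure D2:**
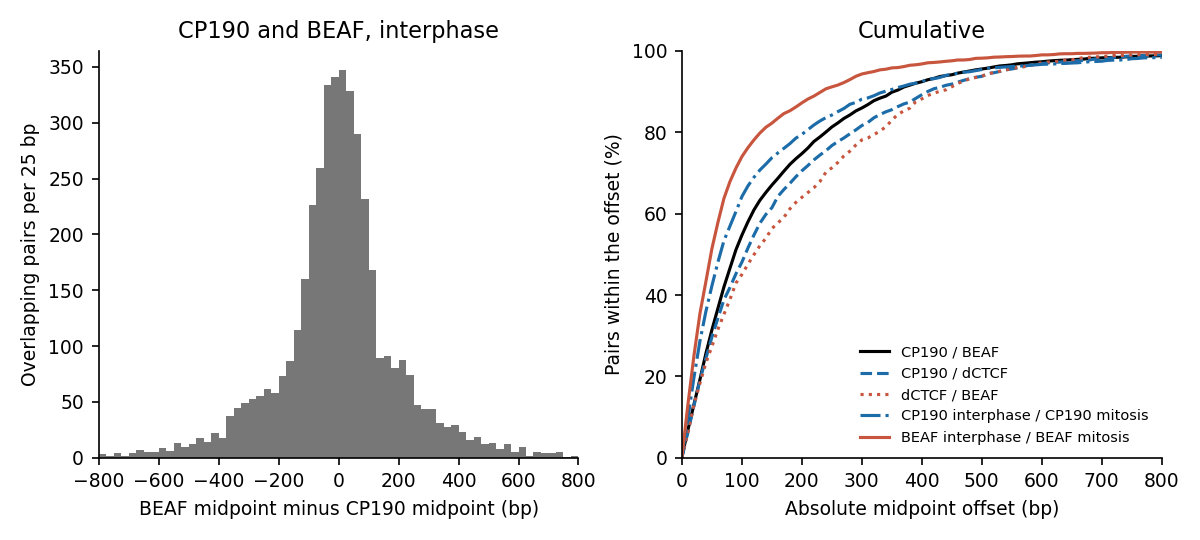
Left, number of overlapping interphase pairs by the BEAF midpoint minus the CP190 midpoint in bins of 25 bp, for offsets up to 800 bp. Right, cumulative share of pairs by absolute midpoint offset for CP190 with BEAF (4310 pairs, median 87.75 bp), both proteins with interphase dCTCF (medians 106.5 and 121.5 bp) and each protein with its own mitotic list (64.5 bp for CP190, 48.5 bp for BEAF).

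Although the sites coincided, the strength ranks of CP190 and BEAF at shared sites were not correlated when all pairs were taken. Spearman's rho between the scores was -0.02 over 4310 pairs, and Kendall's tau was -0.01, given as descriptions across sites. Both scores lay on the same side of their medians in 48.3% of pairs. The median CP190 score at BEAF sites of the lowest to highest quintile was 467.1, 577.8, 507.2, 388.9 and 520.6, with no order. The median BEAF score at CP190 sites of the lowest to highest quintile was 629.3, 721.2, 829.4, 880.2 and 435.0. It thus rose up to the fourth CP190 quintile and was lowest in the highest. By arm, rho was between 0.00 and 0.01 on 2L, 2R, 3R and X, -0.13 on 3L and -0.11 over the 25 pairs of chromosome 4. Leaving out pairs with a score of 3100 or more gave 0.01.

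The rank agreement depended on how the peaks overlapped. In the 2828 pairs that overlapped by at least 50% of both peaks rho was 0.26, and in the other 1482 pairs it was -0.25. The 50% rule selects pairs of like width, with a rho between widths of 0.61 against 0.12 over all pairs. It leaves pairs of unlike width in the other group, with a rho between widths of -0.18 and a median CP190 to BEAF width ratio of 2.34. Width and score went together in each list, with rho of 0.69 for CP190 and 0.75 for BEAF over the pairs. The part of this selection by width in the values of 0.26 and -0.25 was not tested. Pairs with midpoints within 100 bp had a rho of 0.11, and pairs farther apart -0.17. The rho between widths was 0.40 and -0.19 in these groups. In pairs with 1 partner on each side rho was 0.04. For comparison, the rho of a protein with itself between phases was 0.76 for BEAF (2469 pairs) and 0.38 for CP190 (3383 pairs), and without the scores of 3100 or more it was 0.73 and 0.23. Interphase CP190 and dCTCF had a rho of 0.18, and of -0.06 with that restriction.

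**Figure D3:**
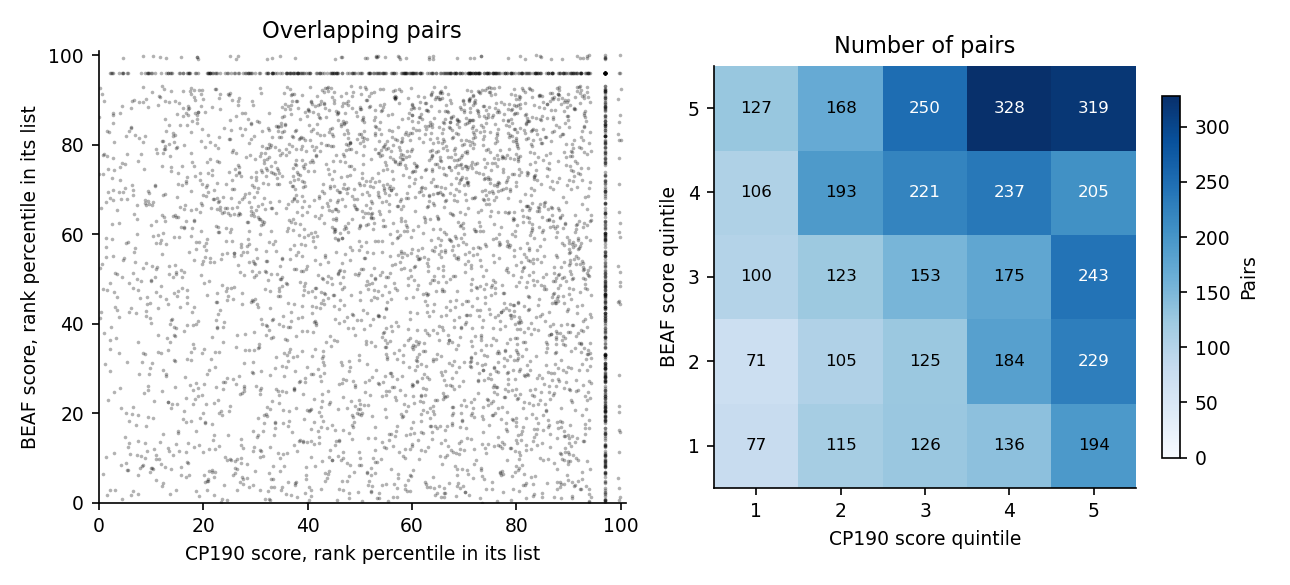
Score ranks at the 4310 overlapping pairs of interphase CP190 and BEAF. Left, each point is 1 pair, with rank percentiles within the main-arm lists (lines of points are ties at a score of 3100), and right, the number of pairs by score quintile, with 319 pairs in the highest quintile of both and 194 and 127 in the opposite corners.

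A minority of the strongest sites of one protein were among the strongest sites of the other. Of the 1000 highest scoring peaks of each list, 144 overlapped each other (14.4%, 12.4 to 16.7%), while 586 of those CP190 peaks overlapped some BEAF peak and 944 of those BEAF peaks overlapped some CP190 peak. Of the 2000 highest scoring CP190 peaks, 436 (21.8%) overlapped 1 of the 2000 highest scoring BEAF peaks. Among the 1137 BEAF peaks of the highest quintile, the best CP190 partner was in the highest CP190 quintile for 28.0%, in the fourth for 27.9% and in the lowest for 6.86%. Over all BEAF peaks, shared or not, 20.9% had a partner in the highest CP190 quintile. Among shared BEAF peaks, such a partner was present at 318 of 1073 in the highest BEAF quintile and 1187 of 4125 over all quintiles. Those shares were close to each other. By chromosomal position, a site strong in both was 2L, 2037278 to 2038063, with a CP190 score of 3167.23 and, at 2037479 to 2038023, a BEAF score of 3228.29 and midpoints 80.5 bp apart. Another was 3R, 4485825 to 4486498, with scores of 3100 for CP190 and 3104.41 for BEAF and midpoints 3.0 bp apart. Both had mitotic peaks of CP190 and BEAF and an interphase dCTCF peak.

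Sites of unequal rank were found in both directions. On 2R, the CP190 peak at 16965542 to 16966281 had a score of 3193.34, and the BEAF peak inside it, at 16965910 to 16966125, one of 51.43. It had mitotic calls of CP190 and Su(Hw) but not of BEAF. On 3R, the CP190 peak at 13429357 to 13430162 had a score of 3100 and its BEAF peak 50.34, with CP190 as its sole mitotic call. In the opposite direction, the BEAF peak on X at 10740655 to 10741763 had a score of 3100 around a CP190 peak of 53.7, with a mitotic BEAF score of 2061.6 and no mitotic CP190 call. The same held on 2L at 2874293 to 2875023, with a BEAF score of 3100, a CP190 score of 53.98 and a mitotic BEAF score of 698.27.

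Some strong peaks of one protein had no peak of the other within several kb. The BEAF peak on chromosome 4 at 64216 to 64749 had a score of 3124.39 and lay 3018 bp from the nearest CP190 peak. That on X at 17036747 to 17037655 had a score of 3196.53 and lay 4356 bp away. Both were called for BEAF in mitosis. The CP190 peak on X at 3179158 to 3179718 had a score of 3189.86 and lay 111745 bp from the nearest BEAF peak, and that on 3R at 21232562 to 21233611, with a score of 3215.21, lay 64930 bp away. Over all unshared peaks, the median gap to the other list was 3049.5 bp for BEAF and 10333 bp for CP190. Near misses were a minority, since 17.0% of unshared BEAF peaks and 6.63% of unshared CP190 peaks lay within 500 bp of the other list.

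The mitotic call of BEAF followed the BEAF score in interphase. Within score quintiles other than the fourth, it differed little between sites with and without CP190. Of all interphase BEAF peaks, 42.1% overlapped a mitotic BEAF peak. The share was 50.1% with CP190 and 20.9% without, a difference of 29.2 points (26.6 to 31.7), and of 17.6 points (15.0 to 20.1) against the 5681 highest scoring CP190 peaks. Within score quintiles most of this difference was not present. In the lowest 3 quintiles, in order, the shares with and without CP190 were 1.56 and 2.44%, 3.26 and 3.02%, and 18.7 and 19.4%. In the highest they were 99.8 and 100%, the latter over 64 peaks. The fourth quintile was the exception, at 88.6% with CP190 and 78.0% without, a difference of 10.6 points (5.08 to 16.9). The shared peaks of that quintile had a median score of 1257.69 and the others 1131.55. Few peaks of the lowest and second quintiles and nearly all peaks of the highest had the call. A difference could hardly show in those quintiles.

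The mitotic call of CP190 was more frequent at sites with BEAF among stronger CP190 peaks. Of all interphase CP190 peaks 31.4% overlapped a mitotic CP190 peak, with 44.3% at shared and 23.1% at unshared peaks, a difference of 21.2 points (19.4 to 23.1). In the lowest and second score quintiles the difference was 0.80 points (-2.50 to 4.53) and 0.97 points (-2.47 to 4.59). It was 8.41 points in the third, 25.3 points (21.3 to 29.2) in the fourth and 30.6 points (26.8 to 34.3) in the highest, where 85.6% of shared and 54.9% of unshared peaks had the call. Shared peaks of the highest quintile were wider (median 1015 bp against 816 bp) and had higher scores (median 2449 against 2024.18), and the part of the score within the quintile was not tested. With 400 bp windows in every list the difference in that quintile was 29.7 points (25.8 to 33.4). A reciprocal overlap of 50% gave 13.2 points over all scores.

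**Figure D4:**
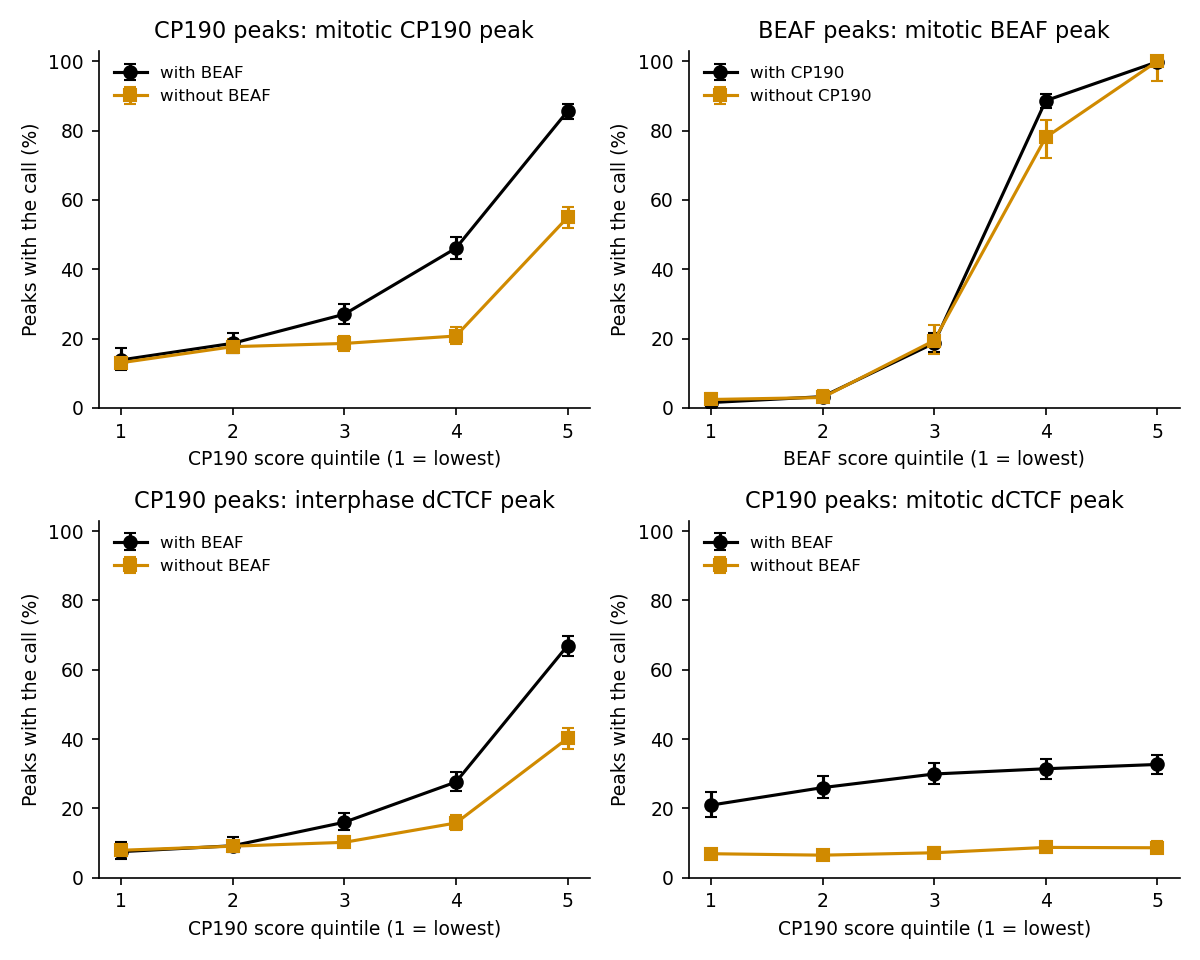
Share of interphase peaks that overlap a further list, by score quintile, for peaks shared between CP190 and BEAF (circles) and unshared peaks (squares), with 95% Wilson intervals. Mitotic BEAF calls at BEAF peaks nearly coincide with and without CP190 outside the fourth quintile. They are rare in the lowest and second quintiles and present at nearly all peaks of the highest, which leaves little room for a difference. Mitotic CP190 calls at CP190 peaks differ by 30.6 points in the highest quintile and by 0.80 points in the lowest.

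Counted per pair, the mitotic call of each protein was most frequent where its own interphase rank was high. Both proteins were called in mitosis at 1080 of 4310 pairs (25.1%, 23.8 to 26.4%), CP190 alone at 20.1%, BEAF alone at 26.4% and neither at 28.4%. Of the 319 pairs in the highest quintile of both, 291 had both calls (91.2%, 87.6 to 93.9%). In the 423 pairs with CP190 in the highest and BEAF in the lowest 2 quintiles, CP190 alone was called in mitosis at 80.4% (76.3 to 83.9%) and BEAF alone at 1 pair. In the 295 pairs with the opposite ranks, BEAF alone was called at 77.3% (72.2 to 81.7%) and both at 22.7%. CP190 alone was called at 0 of them (0 to 1.29%, where 3 counts of the total are 1.02%). Where both were in the lowest 2 quintiles, 78.5% of 368 pairs had neither.

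**Figure D5:**
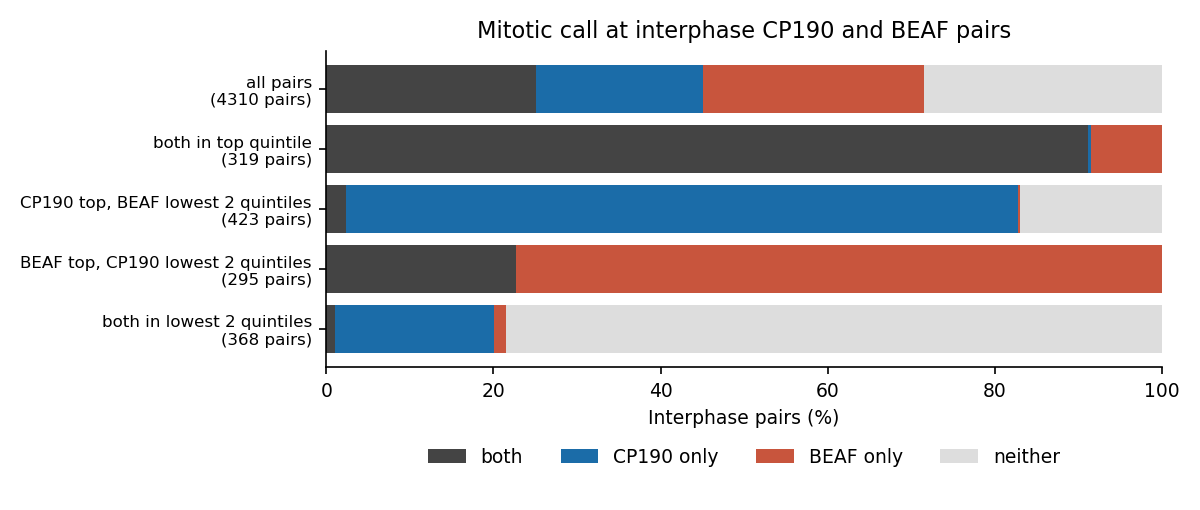
Mitotic calls at interphase CP190 and BEAF pairs, as percent of the pairs in each class of interphase score rank (both proteins, CP190 only, BEAF only, neither). Pairs strong in both have both calls in 91.2%, and pairs strong in 1 protein mostly have that protein's mitotic call alone (80.4% for CP190, 77.3% for BEAF).

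Interphase dCTCF, the fly homolog of CTCF, was more frequent at shared than at unshared peaks, from either side. Of all CP190 peaks 21.1% carried it, with 30.3% at peaks shared with BEAF and 15.1% at the others, a difference of 15.2 points (13.5 to 16.8). As for mitotic CP190, the difference was small in the lowest and second quintiles (-0.40 and 0.12 points) and large in the highest (26.7 points, 22.5 to 30.8), where 66.9% of shared and 40.2% of unshared peaks had dCTCF. Over all scores the difference was 4.38 points with a score of at least 100 required in every list and 5.24 points with a reciprocal overlap of 50%. From the BEAF side, 24.9% of all peaks carried dCTCF, with 30.4% at shared and 10.2% at unshared peaks. There the shared peaks exceeded the others in all 5 quintiles, by 15.0 to 29.4 points. The scores of CP190 and BEAF had a rho of -0.15 in pairs with dCTCF and 0.03 in pairs without.

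Mitotic dCTCF showed another pattern from the CP190 side. Of all CP190 peaks 16.1% overlapped it, at 29.3% of shared and 7.50% of unshared peaks, and the shared peaks exceeded the others in all 5 quintiles by 14.0 to 24.0 points. Of all BEAF peaks 29.8% overlapped mitotic dCTCF, and here the shared peaks (29.5%) and unshared peaks (30.7%) differed by -1.20 points (-3.91 to 1.45). The sign was not the same in all quintiles, with -7.33 points (-12.5 to -2.18) in the lowest, -7.67 points (-13.3 to -2.08) in the second and 7.68 points (-4.73 to 17.9) in the highest. With 400 bp windows the difference over all scores was 5.54 points (3.53 to 7.47). That setting also changed which BEAF peaks counted as shared, and the reason for the change was not tested. Mitotic dCTCF peaks were the widest of these lists, with a main-arm median of 896 bp.

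Su(Hw), the zinc-finger protein of the gypsy insulator, was the only one of the 5 other lists that was less frequent at CP190 sites with BEAF than at those without. Of all CP190 peaks 7.65% overlapped a mitotic Su(Hw) peak, at 6.62% of shared and 8.32% of unshared peaks (-1.71 points, -2.72 to -0.67). The difference was negative in all 5 CP190 quintiles and was -7.87 points (-11.2 to -4.54) in the highest, at 14.6% against 22.5%. In the lowest quintile its interval included 0. From the BEAF side the order was the opposite. Of all BEAF peaks 5.25% overlapped Su(Hw), at 6.69% of those with CP190 and 1.41% of those without. For mitotic BEAF at CP190 peaks the share was 20.5% over all peaks, 51.7% at shared and 0.19% at unshared peaks. For mitotic CP190 at BEAF peaks it was 33.2% over all peaks, 44.2% at shared and 4.11% at unshared peaks. In both cases the classes were set by the interphase list of the same protein, so neither contrast is independent of the class definition. Of the 4310 pairs, 782 had none of the other 5 lists and 32 had all of them.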

How the data were processed

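The submitters' processing notes name Bowtie 0.12.5 as the aligner. For each library the authors deposited 1 peak list with start, end, a peak name beginning with MACS and a score per peak. What the score means, the caller's version and threshold, any control library and the genome build are not given in the sources used. Sequence names are those of Drosophila release 5, whereas the gene table used here is release 6, so no gene or sequence was assigned. Scores depend on library depth, which is unknown.

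Titles of the samples gave the groups, 1 library each, so no test was made. Overlap was 1 bp or more. Score quintiles and rank percentiles were taken within the main-arm lists, with ties at their average rank. Intervals were computed at 95%. Named sites were chosen by rule: highest rank sums (overall and per arm), strongest unshared peaks, largest rank differences, most partners and largest offsets. Members, comparisons and rules were chosen with earlier results of these data known. Overlap counts matched bedtools 2.31.1 exactly in 84 of 84 checks, and the overlap, offset and rank calculations were tested on simulated data. Python 3.11.15, NumPy 2.4.6, SciPy 1.17.1, pandas 2.3.3 and matplotlib 3.10.9 were used. Alternatives were a 50% reciprocal overlap, a score of at least 100, equal list lengths, 400 bp windows, all sequences, pairs with 1 partner each and scores below 3100.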

Additional observations from a re-analysis of the deposited data

Results flagged for a closer look

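The heterochromatic and unplaced sequences, which no comparison above uses, also held shared sites. There 26.4% of CP190 peaks (274 of 1039) overlapped a BEAF peak and 12.1% of BEAF peaks (279 of 2299) overlapped a CP190 peak.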

How the results depend on the processing

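No paired analysis was possible because each group was 1 library, and for the same reason no replicate could be left out. Of 38 recalculated values 9 stayed within the interval of the reported value, 29 moved outside it and 0 of those whose interval excluded 0 changed sign. The rho of -0.02, whose Fisher z interval included 0, was positive under 4 settings, with an interval above 0 for the reciprocal overlap and for pairs with 1 partner each, and below 0 for equal numbers. A reciprocal overlap of 50% gave shares of 27.1% (CP190) and 49.8% (BEAF), an offset of 62.5 bp, a rho of 0.26 and differences of 13.2 points (mitotic CP190), 33.1 points (mitotic BEAF) and 5.24 points (dCTCF). A score of at least 100 gave 36.6%, 69.2% and differences of 14.6, 24.5 and 4.38 points. Equal numbers (5681 peaks per list) gave 47.9%, 50.3%, a rho of -0.063 and differences of 26.5, 17.6 and 18.5 points. Windows of 400 bp gave 37.6%, 68.7%, an offset of 79.0 bp and 13.3 points for dCTCF. All sequences gave 38.2%, 55.2% and 17.8, 23.4 and 12.5 points. Pairs with 1 partner each had an offset of 72.5 bp and a rho of 0.041. Fewer peaks enter under the score and equal-number rules, and the reciprocal rule selects pairs of like width. Beyond this the cause was not tested. The 400 bp windows by quintile and for mitotic dCTCF were added after seeing the data. Unknown depth limits every absent call.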

Other observations

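Some sites held several peaks of 1 protein under 1 peak of the other. Of the shared CP190 peaks 195 (4.74%) overlapped 2 or more BEAF peaks, with a median CP190 width of 1244 bp and a median distance of 603 bp between BEAF midpoints. The BEAF midpoints lay on both sides of the CP190 midpoint at 165 of them. The CP190 peak on 3R at 16376127 to 16378331 overlapped 3 BEAF peaks, of which the strongest had a score of 3100. That on 2R at 11734137 to 11735781 also overlapped 3, with a highest BEAF score of 268.75, and had a CP190 score of 3100 in both phases.

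The opposite arrangement was as frequent. Of the shared BEAF peaks 182 (4.41%) overlapped 2 or more CP190 peaks. These BEAF peaks were strong, with a median score of 2605.34 against 598.78 over all shared BEAF peaks. They were also wide, with a median width of 956.5 bp against 508 bp. The CP190 midpoints were a median of 648.25 bp apart and lay on both sides of the BEAF midpoint at 178 of the 182. Closely spaced peaks are split or merged by the peak caller in ways that the lists do not show.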
